A study of Mus musculus with 12 samples.

Results

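Of the 48443 accessible regions (peaks) counted by ATAC-seq in cultured mouse T cells, 3378 (6.97%) were strongly restricted to the Th17 lineage. The peaks were chosen by their measured lineage difference: a mean over the 6 Th17 libraries of at least 8 CPM (the count divided by the library's total over all peaks and multiplied by 1000000) that was at least 4 times the mean over the 6 regulatory T cell libraries. Both means pooled vehicle and inhibitor-treated cultures. The lineage difference of these peaks is therefore fixed by their choice and is described without a test, whereas the rule did not use the difference between inhibitor and vehicle. As the Th17 mean includes both, a peak that rose with the inhibitor could meet the rule through its treated libraries alone. In the same way, a peak that fell could meet it through its vehicle libraries alone. The mirrored rule for the other lineage found 324 peaks.

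Naive CD4+ T cells sorted from the spleens of C57BL/6 wild-type mice were activated for 68 h on plates coated with anti-CD3 and anti-CD28 antibodies at 1 µg/ml each. IL-6 at 25 ng/ml and TGF-beta1 at 2 ng/ml gave the non-pathogenic Th17 cultures (Th17n), and TGF-beta1 at 2 ng/ml without IL-6 gave the induced regulatory T cell cultures (iTreg). Each lineage was cultured with 100 µM DFMO (difluoromethylornithine) or with vehicle, in cultures from 3 animals per group and 12 libraries in all, with the same 3 animal labels in every group. All cells were differentiated in vitro and sorted only as live cells, so the lineage names give the culture condition and not a sorted phenotype.

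Th17 cells are a helper lineage induced by IL-6 through the transcription factor STAT3 together with TGF-beta, and they are known for the cytokines IL-17A, IL-17F and IL-21. Their identity is set by transcription factors such as the nuclear receptor RORα (Rora), acting on chromatin first opened by AP-1, BATF and IRF4 factors after T cell receptor signalling. TGF-beta without IL-6 favours Foxp3 and the regulatory lineage. DFMO blocks ornithine decarboxylase (Odc1), the first step of polyamine synthesis, and the cultures ask how polyamine synthesis bears on the chromatin of the 2 lineages.

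The sequences below are shown because a Th17n-restricted peak overlapped each of them, at the start of a defining cytokine or receptor gene. The 250 bases before the start of Il17a (GRCm38.p6, the same build as mm10, chr1:20730655-20730904, plus strand), Il17f (chr1:20784271-20784520, minus strand), Il21 (chr3:37232637-37232886, minus strand) and the IL-1 receptor gene Il1r1 (chr1:40224830-40225079, plus strand) were taken from RefSeq. Capitals mark an AP-1 site (TGANTCA), a ROR half-site (AGGTCA or its complement TGACCT) or a RUNX site (TGTGGT or its complement ACCACA).
Il17a: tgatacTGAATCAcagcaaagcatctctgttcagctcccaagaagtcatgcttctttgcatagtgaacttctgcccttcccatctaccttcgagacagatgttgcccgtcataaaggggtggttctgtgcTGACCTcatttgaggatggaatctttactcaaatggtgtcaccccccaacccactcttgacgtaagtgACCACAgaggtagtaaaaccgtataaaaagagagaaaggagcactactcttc
Il17f: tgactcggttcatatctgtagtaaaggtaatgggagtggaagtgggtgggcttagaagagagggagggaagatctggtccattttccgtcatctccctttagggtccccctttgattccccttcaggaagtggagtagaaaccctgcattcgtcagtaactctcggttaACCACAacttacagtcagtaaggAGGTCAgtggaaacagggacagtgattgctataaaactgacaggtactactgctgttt
Il21: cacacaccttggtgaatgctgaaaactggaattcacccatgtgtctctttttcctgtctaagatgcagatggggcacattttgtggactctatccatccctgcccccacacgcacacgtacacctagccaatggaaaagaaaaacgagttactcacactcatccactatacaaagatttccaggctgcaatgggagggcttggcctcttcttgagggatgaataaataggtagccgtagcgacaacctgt
Il1r1: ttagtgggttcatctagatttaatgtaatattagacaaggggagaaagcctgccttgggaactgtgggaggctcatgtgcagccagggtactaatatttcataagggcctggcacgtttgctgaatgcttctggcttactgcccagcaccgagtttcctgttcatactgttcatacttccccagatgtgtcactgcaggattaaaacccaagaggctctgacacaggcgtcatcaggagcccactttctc
The Il17a window held an AP-1 match 244 bases before the start, a ROR half-site on the opposite strand at 120 bases and a RUNX match on the opposite strand at 52 bases. The Il17f window held a ROR half-site at 58 bases and a RUNX match on the opposite strand at 81 bases. None of the 8 patterns searched was found in the Il21 and Il1r1 windows. A match is a description of the letters and does not show that a factor bound there.

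Members held 7.33, 7.11 and 7.56% of all counts in the 3 Th17n vehicle libraries (animals 1, 2 and 3) and 5.73, 6.42 and 5.66% in the 3 Th17n DFMO libraries. The share was 0.848, 1.06 and 1.29% in iTreg vehicle and 0.959, 0.977 and 0.949% in iTreg with DFMO. The Th17n vehicle libraries (7.33% ± 0.22, SD, n = 3) were all above the Th17n DFMO libraries (5.94% ± 0.42), while the iTreg groups overlapped. These are bulk cultures, in which fewer cells with an open region and less accessibility per cell cannot be told apart.

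**Figure D1:**
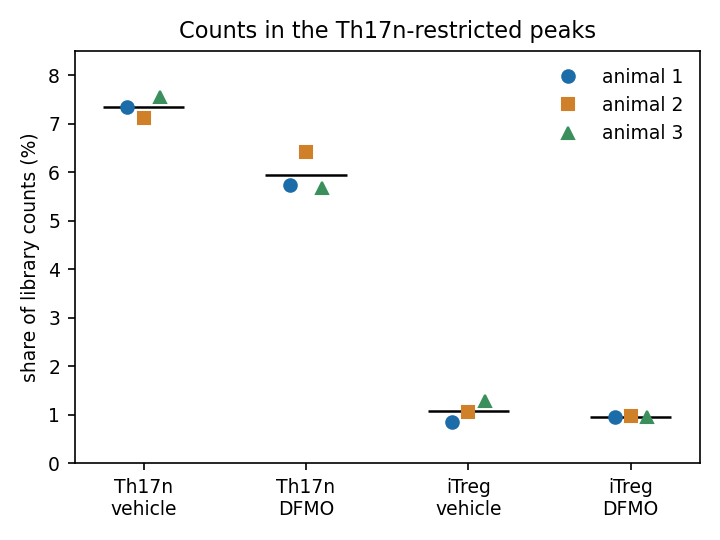
Share of each library's counts (%, vertical axis) that fell in the 3378 Th17n-restricted peaks, by culture group (horizontal axis). Each point is 1 library, its shape and colour the animal, and the bar is the group mean of 3; Th17n vehicle lies at 7.11 to 7.56% and Th17n with DFMO at 5.66 to 6.42%.

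Library totals ran from 1020937 to 6496550 counts. A member held a median of 18 to 109 counts in the Th17n libraries and 4 to 14 in the iTreg libraries, so its iTreg values and its response to DFMO in iTreg are the less precise ones. The single peak assigned to Foxp3, the defining factor of regulatory T cells (chromosome X, 7593219 to 7593658, inside the gene), went against the iTreg label: it held 21.5, 14.2 and 12.6 CPM in Th17n vehicle and 2.05, 4.3 and 6.47 CPM in iTreg vehicle. With DFMO the Foxp3 peak held 7.15, 6.49 and 2.60 CPM in Th17n and 6.46, 4.27 and 4.69 CPM in iTreg, which overlapped. It fell with DFMO in Th17n (log2 change -1.39, adjusted p = 0.0216, edgeR quasi-likelihood test). Fits without 1 library are not reported here for this peak. With a ratio of 2.29 over all libraries it was no member. Cd4 and Cd3e had peaks in both lineages.

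Members held a median of 15.2 CPM in Th17n (8.01 to 127) and 2.25 CPM in iTreg, and the median ratio of the lineages was 6.43. The ratio was 4 to 6 at 1480 members and 10 or more at 682. At 3060 members every Th17n library was above every iTreg library, a separation that the rule itself favours. It was not counted over all peaks. In vehicle alone 3014 members were at least 4-fold higher in Th17n, and with DFMO alone 2714 were. The median ratio was 7.19 in vehicle and 6.12 with DFMO. With DFMO 48 members had a ratio under 2, against 5 in vehicle. Members just inside the level threshold lay at Celf2, Tex2 and Abca1 (each 8.01 CPM), and peaks just outside it at Sh3rf1 and Smad3 (each 7.99 CPM). Just inside the ratio threshold lay members at Emb, Rnf24 and Ptprk (each at 4 when rounded), with peaks at Npas2 and Gipc2 falling short of it by less than the last digit.

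The widest and most accessible member was a region of 1791 bp at a gene end of the zinc finger gene Zfp51 (chromosome 17, 21463483 to 21465274). It held 162, 155 and 164 CPM in Th17n vehicle, 78.0, 120 and 84.6 CPM with DFMO, and 22.5 to 36.4 CPM in the 6 iTreg libraries. The groups of Th17n did not overlap, and the region fell with DFMO by 0.74 on the log2 scale (SE 0.15, adjusted p = 0.000876). Among the members with the highest ratios, a region inside Tmtc4 (chromosome 14, 122935683 to 122936262) held 72.5, 65.0 and 59.9 CPM in Th17n vehicle and at most 2.02 CPM in any iTreg library. A region outside Vstm5 (chromosome 9, 15185225 to 15185927) held 69.5, 79.6 and 99.0 CPM in Th17n vehicle and at most 2.83 CPM in iTreg. Neither passed the test with DFMO in Th17n (-0.45, adjusted p = 0.189, and -0.41, adjusted p = 0.196).

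Th17n-restricted peaks lay away from the ends of genes. Only 3.17% were within 1 kb of either end of a protein-coding gene model (a gene end), against 25.2% of all peaks. Another 57.8% lay inside a gene (42.7% of all peaks), 31.6% outside but within 100 kb (27.3%) and 7.37% farther from any gene (4.85%). The iTreg-restricted peaks had a like share of 3.4% at gene ends. The median distance to a gene end was 20611 bp for members and 9052 bp for all peaks. Members were about as wide (median 470 bp) as all peaks (480 bp) and the iTreg-restricted peaks (474.5 bp). Other peaks away from gene ends were narrower, with a median of 400 bp. Of the 107 members at a gene end, 23 lay at the start of the gene and 63 at its other end, and 21 were at genes without an entry in the promoter table used. Over all peaks these counts were 8395, 1353 and 2445. No member overlapped a tRNA gene, whereas 146 peaks of the whole table did.

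**Figure D2:**
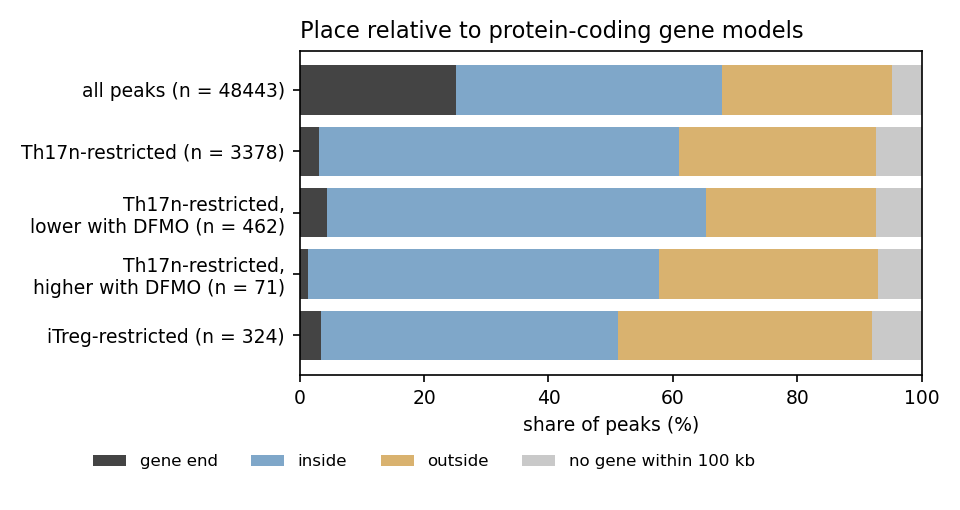
Share of peaks (%, horizontal axis) at gene ends, inside genes, outside within 100 kb and farther away, for all peaks, the Th17n-restricted peaks, those called lower or higher with DFMO in Th17n, and the iTreg-restricted peaks. Both lineage-restricted sets have few gene-end peaks (3.17% and 3.4%, against 25.2% of all peaks).

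The 40 members that overlapped a promoter window (250 bases before to 50 after a start in RefSeq) touched 41 windows. The AP-1 letters TGANTCA, searched on both strands, were in 48.8% of them. They were in 5.28% of the 12757 windows touched by any peak, in 44.3% of the 79 windows touched by peaks of the same level with a lineage ratio of 2 to 4, and in 7.81% of all 32851 windows. The ROR half-site AGGTCA was in 39.0% of the members' windows, 11.2% of those with any peak, 19.0% of those with peaks of ratio 2 to 4 and 16.3% of all windows. For the other patterns the shares were lower, and those of GATA and STAT stood above windows with any peak but below all windows. RUNX (TGTGGT) was in 22.0% of the members' windows, 12.3% of those with any peak and 16.8% of all windows. A forkhead pattern (TGTTTAC) was in 9.76%, 2.42% and 3.65%. The letters AGATAA read by GATA factors were in 9.76%, 5.20% and 11.2%. A STAT pattern (TTCNNNGAA) was in 7.32%, 6.42% and 8.30%, and the IRF pattern in 2.44%, 2.81% and 3.44%. In the 79 windows with peaks of ratio 2 to 4, RUNX was in 19.0%, forkhead in 5.06%, GATA in 7.59%, STAT in 5.06% and IRF in 3.80%. The AP-1 and IRF composite holds the AP-1 letters beside those of an IRF site. It was in none of the 41, in 0.0705% of windows with any peak and in 1.27% of those with ratio 2 to 4. The members' windows had a median GC content of 48.7%, against 62.3% for windows with any peak and 52.0% for those with peaks of ratio 2 to 4, and the part of base composition in these shares was not tested.

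Assigned to the nearest gene, 3129 members fell to 2291 genes, of which 178 had at least 3 members. The nearest gene need not be the one a region acts on. Hdac4, a histone deacetylase gene, had 9 members, the tumour suppressor gene Wwox had 8, and Ebf1, Mgll and Sox5 had 7 members each. Linking members no more than 50 kb apart gave 519 runs that held 1235 members. The longest runs had 7 members, one over Il2 and Il21 (chromosome 3, 37171473 to 37239455) and one over Tmtc4, Pcca and Ggact (chromosome 14, 122807005 to 122948501). A run of 5 spanned Il17a and Il17f (chromosome 1, 20730661 to 20792886), and another run of 5 lay inside Rora (chromosome 9, 69017935 to 69113224).

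DFMO lowered accessibility at far more Th17n-restricted peaks than it raised. In Th17n cells 462 of 3378 members (13.7%) fell and 71 (2.1%) rose at an adjusted p under 0.05 (edgeR quasi-likelihood test over all 43726 peaks tested). Over all peaks tested 4.28% fell and 4.5% rose, 8.78% in either direction. The median log2 change was -0.33 over members, with 68.9% below 0, and 0.01 over all peaks tested. Other peaks away from gene ends with at least 8 CPM in Th17n had a median of -0.01, with 5.38% lower and 5.5% higher. By animal, the members' median was -0.37, -0.18 and -0.43 in animals 1, 2 and 3 (log2 of CPM + 1). The count of lower members fell to 238 and 297 without the DFMO library of animal 1 or 3, and to 244 and 220 without the vehicle library of animal 2 or 3. The count of higher members was 24 to 41 when any of the 6 Th17n libraries was left out, that is without Th17n vehicle replicate 1, 2 or 3 or Th17n DFMO replicate 1, 2 or 3. Over the settings tried the median of the members stayed between -0.43 and -0.31.

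The median response was graded over ratios of the lineages up to about 4 and then level. Among peaks away from gene ends with at least 8 CPM in Th17n, the median log2 change with DFMO was 0.15 where iTreg was more than 2-fold higher (430 peaks). It was 0.07, -0.05 and -0.16 at ratios of 0.5 to 1, 1 to 2 and 2 to 4. Within members it was -0.31 at ratios of 4 to 6, -0.34 at 6 to 10, -0.33 at 10 to 20 and -0.32 at 20 or more. In iTreg the medians were graded over the same lower ratios, at 0.11, 0.02, -0.13 and -0.19, and lay between -0.19 and -0.01 in the members' bins. The iTreg-restricted peaks, by the mirrored rule, had a median of 0.61 in Th17n, where they are low by choice, with 44 of 324 higher (13.6%) and 1 lower. In iTreg their median was 0.20, with 44 higher and 13 lower. The response was seen in every place: the median was -0.35 inside genes, -0.27 outside, -0.39 at gene ends and -0.26 far from genes.

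**Figure D3:**
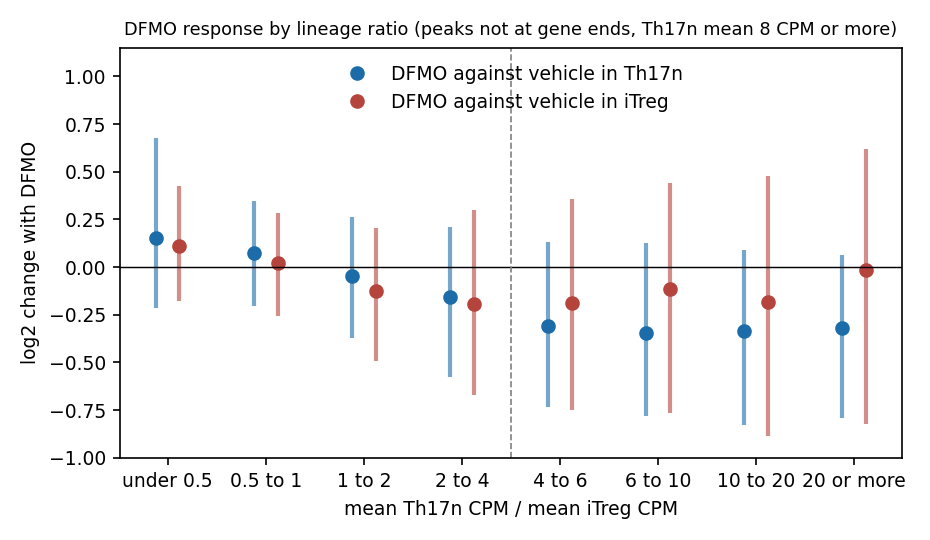
Median (points) and quartiles (bars) of the log2 change with DFMO (vertical axis) in Th17n (blue) and iTreg (red) for peaks away from gene ends with at least 8 CPM in Th17n, binned by the ratio of mean Th17n to mean iTreg CPM (horizontal axis); members lie right of the dashed line. In Th17n the medians run from 0.15 to -0.16 left of the line and between -0.34 and -0.31 right of it.

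Of the 462 members that fell, 398 fell at least 2-fold and 460 were lower with DFMO in all 3 animals. Their median lineage ratio was 9.75 in vehicle and 4.09 with DFMO. With DFMO 239 of them still held at least 4 times the iTreg level and 39 held less than 2 times. The 71 members that rose had a median ratio of 3.98 in vehicle and 9.33 with DFMO. Both sets were chosen by their change in these same libraries. The size of the change, the agreement among animals and the shifts of the ratios are therefore a description and no further support.

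Genes of the Th17 programme held 30 members at 14 genes, of 221 peaks at 29 genes. Of these 30, 8 fell with DFMO in Th17n, 1 rose and 21 did not pass, with a median log2 change of -0.48. Over all 203 peaks of the list that were tested 22 fell and 7 rose, with a median of -0.18. The first peak of the Il17 locus covered the Il17a start (chromosome 1, 20730661 to 20731781) and overlaps the sequence shown above. It held 25.5, 24.6 and 18.5 CPM in Th17n vehicle and 11, 9.09 and 6.51 CPM with DFMO, and 0 to 5.28 CPM in iTreg. The Th17n groups did not overlap and the peak fell (log2 change -1.28, SE 0.36, adjusted p = 0.0193). The call was lost without Th17n vehicle replicate 2 (adjusted p = 0.117) and without Th17n DFMO replicate 2 or 3 (0.0521 and 0.0782), and with all libraries thinned to the smallest total (0.119).

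A peak between Il17a and Il17f, nearer to Il17f (chromosome 1, 20759610 to 20760279), was the most accessible of the locus. It held 75.4, 58.5 and 73.1 CPM in Th17n vehicle and 34.1, 33.3 and 32.6 CPM with DFMO. In iTreg it held 13.8, 7.31 and 11.5 CPM in vehicle and 5.28, 3.32 and 4.10 CPM with DFMO. The groups overlapped in neither lineage. It fell in Th17n (-1.0, SE 0.21, adjusted p = 0.00155) and, from a lower level, in iTreg (-1.30, SE 0.33, adjusted p = 0.00847), and the difference between the lineages did not pass (0.30, SE 0.39, adjusted p = 0.798). The iTreg call was lost without iTreg vehicle replicate 3 (adjusted p = 0.0573), without iTreg DFMO replicate 3 (0.0647) and with thinned libraries (0.131). The peak over the Il17f start (20784247 to 20784613) held 15.0 ± 3.23 CPM in Th17n vehicle and 9.93 ± 2.66 CPM with DFMO (SD, n = 3; -0.59, adjusted p = 0.441), and its groups overlapped.

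Il21, whose product acts on B cells and on Th17 cells themselves, had 6 members. The most accessible at the start of the gene (chromosome 3, 37231027 to 37231695) lay within 1 kb of the start, inside the gene and beside the sequence shown above. It held 55.8, 55.6 and 58.7 CPM in Th17n vehicle, 58.5, 46.7 and 46.2 CPM with DFMO and 0.587 to 4.85 CPM in iTreg. The Th17n groups overlapped and the change did not pass (-0.13, SE 0.23, adjusted p = 0.789). The weaker member that overlaps the printed sequence (37232572 to 37232827) held 13 ± 3.3 and 16.6 ± 0.964 CPM in Th17n and did not pass either (0.45, SE 0.38, adjusted p = 0.517). Outside the gene, a peak at 37219178 to 37220397 fell from 55.5 ± 3.72 CPM in vehicle to 33.6 ± 6.11 CPM with DFMO (log2 change -0.68, adjusted p = 0.0434), and one at 37238914 to 37239455 from 16.8 ± 6.74 to 6.03 ± 0.494 CPM (-1.36, adjusted p = 0.0428). Both calls were marginal. The first was lost without Th17n vehicle replicate 1, 2 or 3 or Th17n DFMO replicate 1 or 3 (adjusted p of 0.0695 to 0.154), and the second without any 1 of the 6 Th17n libraries (0.0654 to 0.142); thinning the libraries ended both (0.0733 and 0.0641). Il10, an anti-inflammatory cytokine made by non-pathogenic Th17 cells, had 2 members, which did not pass (-0.53, adjusted p = 0.255, and -0.27, adjusted p = 0.749).

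Receptor genes differed among themselves. The peak over an Il1r1 start, shown above (chromosome 1, 40224614 to 40225280), held 9.79, 16.9 and 26.4 CPM in Th17n vehicle and 9.42, 6.49 and 3.26 CPM with DFMO. The groups did not overlap, though the nearest libraries held 9.79 and 9.42 CPM. The fall (-1.43, SE 0.44, adjusted p = 0.0315) was lost with the animal as a block (adjusted p = 0.0799), with DESeq2 (0.0802), with thinned libraries (0.118), without Th17n vehicle replicate 2 or 3 (0.0859 and 0.268) and without Th17n DFMO replicate 2 or 3 (0.0824 and 0.129). The other Il1r1 member, outside the gene, held 6.93 ± 1.85 CPM in vehicle and 16 ± 6.05 CPM with DFMO (1.18, adjusted p = 0.0601). A member inside Il23r, the receptor for IL-23 (chromosome 6, 67483057 to 67483558), held 19.6, 29.6 and 28.8 CPM in Th17n vehicle and 40.6, 49.8 and 30.0 CPM with DFMO. All 3 DFMO libraries were above the vehicle libraries, yet the change did not pass (0.61, SE 0.27, adjusted p = 0.154). A member outside Ccr6, a chemokine receptor of Th17 cells (chromosome 17, 8226833 to 8227111), fell from 16.2 ± 4.61 CPM in vehicle to 5.92 ± 3.48 CPM with DFMO (-1.36, adjusted p = 0.0268). That call was lost without Th17n vehicle replicate 2 or 3 (0.0628 and 0.187), without Th17n DFMO replicate 3 (0.129), with DESeq2 (0.0562) and with thinned libraries (0.0656).

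Of the 3 members outside the IL-4 receptor gene Il4ra, 1 fell (chromosome 7, 125543518 to 125543902). It held 50.9, 34.6 and 53.7 CPM in Th17n vehicle and 21.4, 22.9 and 20.2 CPM with DFMO, with no overlap (-1.05, SE 0.27, adjusted p = 0.00837). The call was lost without Th17n vehicle replicate 3 (0.0815). This peak also fell in iTreg (adjusted p = 0.042), a call lost without iTreg vehicle replicate 2 (0.418) and with thinned libraries (0.0788), among other fits. A neighbour at 125539285 to 125539692 held 48.0 ± 2.47 and 40.2 ± 6.52 CPM and did not pass (-0.21, adjusted p = 0.64). The IL-6 receptor and STAT3 feedback list held 3 members of 111 peaks, at Jak1, Il6st and Stat3. The Jak1 kinase gene had a strong member (chromosome 4, 101276509 to 101277281) that held 46.7 ± 7.32 CPM in Th17n vehicle and 45.9 ± 6.21 CPM with DFMO (-0.04, adjusted p = 0.946).

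Among transcription factor genes, the member at the far end of Stat3, which encodes the factor that carries the IL-6 signal (chromosome 11, 100887271 to 100887796), held 27.4, 20.8 and 22.9 CPM in Th17n vehicle and 5.85, 7.79 and 4.56 CPM with DFMO. In iTreg it held 0.949 to 5.63 CPM. The Th17n groups were far apart and the peak fell (-1.88, SE 0.38, adjusted p = 0.000858). Rora had 5 members, of which the one with the largest ratio (chromosome 9, 69102260 to 69103158) held 31.3, 48.2 and 41.4 CPM in Th17n vehicle, 27.3, 45.9 and 29.3 CPM with DFMO and at most 2.22 CPM in iTreg. Its Th17n groups overlapped (-0.26, SE 0.26, adjusted p = 0.594). A weaker Rora member at 69111643 to 69112036 fell from 17.9 ± 7.44 CPM in vehicle to 7.08 ± 0.671 CPM with DFMO (-1.22, adjusted p = 0.0366), a call lost without any 1 of the 6 Th17n libraries (0.0542 to 0.135) and with thinned libraries (0.0548). Members at Irf4, Ahr and Maf, which encode factors of early Th17 differentiation, did not pass, with log2 changes from -1.05 to 0.17.

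The AP-1 and BATF list held 11 members of 136 peaks, of which 4 fell and none rose in Th17n. Over all 130 peaks of the list that were tested 14 fell and 5 rose. In iTreg 3 of the 11 members fell and none rose. They lay at Fosl2 (start 32154977, adjusted p = 0.0495), Nfil3 (start 52973512, 0.0468) and Bach2 (start 32461430, 0.0218). Each of these iTreg calls was lost with thinned libraries and without at least 1 iTreg library. Fosl2, which encodes the AP-1 factor FRA2, had 2 members that fell in Th17n. The one inside the gene (chromosome 5, 32154977 to 32155801) held 38.2, 31.9 and 39.6 CPM in Th17n vehicle and 6.50, 7.36 and 10.4 CPM with DFMO (-2.18, SE 0.35, adjusted p = 3.53e-05). The one outside (32169048 to 32169384) held 25.5, 15.2 and 21.1 CPM in vehicle and 4.22, 4.76 and 3.26 CPM with DFMO (-2.22, SE 0.41, adjusted p = 0.000332). Neither pair of groups overlapped. Bach2, a repressor that competes with AP-1 factors, had 5 members. One of them (chromosome 4, 32318464 to 32318952) fell in Th17n from 22.5, 21.9 and 21.7 CPM to 5.20, 4.76 and 3.91 CPM (-2.19, SE 0.38, adjusted p = 0.000148). The other 4 did not pass in Th17n, with log2 changes of -0.27 to 0.07. A member outside Nfil3 (chromosome 13, 52985519 to 52986495) fell from 61.9 ± 11.2 CPM in vehicle to 30.1 ± 4.68 CPM with DFMO (-0.96, SE 0.22, adjusted p = 0.0031). Satb1, a chromatin organiser of T cells in the naive and memory list, had 3 members, of which 2 fell. Its far gene end (chromosome 17, 51735848 to 51737256) went from 38.4 ± 4.02 to 14.5 ± 5.39 CPM (-1.34, adjusted p = 0.00126), and a peak outside (51903882 to 51904231) from 31.1 ± 8.36 to 6.75 ± 3.66 CPM (-2.03, adjusted p = 0.000117).

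Members also lay at genes of costimulation and of the regulatory programme. The run of genes Cd28, Ctla4 and Icos on chromosome 1 encodes an activating receptor, its inhibitory competitor and a second costimulator. Of the 4 members at Cd28, 1 fell in Th17n. This member, inside the gene (60765048 to 60766105), held 42.1, 44.8 and 37.0 CPM in Th17n vehicle and 13, 16 and 15 CPM with DFMO (-1.48, SE 0.27, adjusted p = 0.000331). It also fell in iTreg (adjusted p = 0.0187), a call lost without iTreg vehicle replicate 3 (0.215) and with thinned libraries (0.0742), among other fits. Outside Ctla4 a weak member (60864368 to 60864670) held 26.4, 12.9 and 10.6 CPM in vehicle and 1.62, 4.76 and 2.60 CPM with DFMO (-2.35, SE 0.54, adjusted p = 0.00356). Another at Ctla4 (60930429 to 60930978) held 24.3 ± 4.92 and 23.0 ± 1.47 CPM and did not pass (-0.10, adjusted p = 0.881). Outside Icos a member (61054375 to 61055310) fell from 45.0 ± 3 CPM in vehicle to 21.2 ± 4.30 CPM with DFMO (-1.06, adjusted p = 0.0124), a call lost without Th17n vehicle replicate 2 (0.0589) and without Th17n DFMO replicate 1 (0.0823). The regulatory list held 5 members of 137 peaks, at Ctla4, Nt5e, Entpd1 and Itgae. Nt5e encodes CD73, an enzyme that makes adenosine, and its member (chromosome 9, 88357410 to 88358060) fell from 37.1 ± 3.04 CPM in vehicle to 17.2 ± 3.45 CPM with DFMO (-1.11, adjusted p = 0.00857); the call was lost without Th17n vehicle replicate 3 (0.0538) and without Th17n DFMO replicate 1 (0.0644).

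Of the Th17n-restricted peaks, 2 were assigned to Odc1, the gene of the enzyme DFMO inhibits. The one inside the gene (chromosome 12, 17549351 to 17549768) held 30.4, 34.0 and 35.2 CPM in Th17n vehicle, 35.7, 22.5 and 23.4 CPM with DFMO and 1.90 to 6.23 CPM in iTreg. The one outside (17542557 to 17542824) held 26.4, 27.4 and 27.9 CPM in vehicle and 18.2, 18.2 and 16.9 CPM with DFMO. Neither passed (-0.25, SE 0.26, adjusted p = 0.612, and -0.59, SE 0.32, adjusted p = 0.255), although the groups of the second did not overlap. The polyamine list held 3 members of 39 peaks, and none passed in either lineage.

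Cd5l, which encodes a lipid regulator of non-pathogenic Th17 cells, had the 1 member of the Th17 list that rose (chromosome 3, 87359072 to 87359510). It held 12.7, 14.6 and 18.5 CPM in Th17n vehicle and 23.1, 37.6 and 28 CPM with DFMO (0.94, SE 0.30, adjusted p = 0.0403). The call was lost without any 1 of the 6 Th17n libraries (0.0656 to 0.276), with DESeq2 (0.0663), with factors from gene-end peaks (0.0675), with no filter (0.0554) and with thinned libraries (0.0913). Among the remaining lists, the Th1 list had no member among 71 peaks. The Th2 list had 4 of 40, at Il4ra and Gata3. Its Gata3 member fell from 12.3 ± 2.16 CPM in vehicle to 4.15 ± 1.47 CPM with DFMO (-1.47, adjusted p = 0.0478), a call lost without any 1 of the 6 Th17n libraries (0.0614 to 0.202) and with DESeq2 (0.0814). The Tfh list had 9 of 92, of which 3 fell in Th17n, at Il21 and Icos. The naive and memory list had 11 of 213, of which 3 fell in Th17n, at Bach2 and Satb1. The pan T cell list had 6 of 43, of which 1 fell in Th17n, at Cd28.

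Some lists of other cell types also held members, beside a share of 6.97% over all peaks. The CD8 and cytotoxic list had none among 17 peaks, which summed to 175 to 201 CPM in Th17n vehicle and 206 to 224 CPM in iTreg vehicle, and Cd8a, Ncr1 and Nkg7 had no peak. The B cell list had 7 of 24 (29.2%, against 13.6% for the Th17 list), all at Ebf1, while the defining genes Cd79a, Cd79b and Ms4a1 had no peak. Summed over its peaks this list held 239 to 274 CPM in Th17n vehicle, 261 to 277 CPM with DFMO, 140 to 202 CPM in iTreg vehicle and 144 to 172 CPM in iTreg with DFMO. The myeloid list had 1 of 22, at Cebpb, and the list of gamma-delta T and innate lymphoid cells 4 of 20 (20.0%), at Id2, Sox13 and Zbtb16. Their summed levels overlapped between Th17n and iTreg vehicle only for the second list (335 to 428 and 324 to 347 CPM; 372 to 384 and 346 to 358 CPM for the myeloid list). The part of other cells in the members' values was not tested.

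The strongest losses with DFMO lay mostly outside these lists. Inside Mfsd2a, a transporter of lysophospholipids (chromosome 4, 122951346 to 122951879), the member held 64.6, 63.3 and 62.5 CPM in Th17n vehicle and 13.6, 15.6 and 9.77 CPM with DFMO (-2.23, SE 0.30, adjusted p = 1.48e-06). It also fell in iTreg, from 4.09, 13.5 and 14.4 CPM to 0, 2.85 and 4.69 CPM (-1.93, SE 0.42, adjusted p = 0.00198), where the groups overlapped. Outside Ndrg1 (chromosome 15, 67017858 to 67018345), 21.5, 23.6 and 18.5 CPM became 2.92, 1.73 and 1.30 CPM (-3.27, SE 0.44, adjusted p = 1.65e-06), and the 6 iTreg libraries held 1.02 to 1.90 CPM. With DFMO this Th17n peak thus overlapped the iTreg libraries. Inside Papss1, which encodes an enzyme that makes the sulfate donor PAPS (chromosome 3, 131618362 to 131618976), 55.8, 34.3 and 52.6 CPM became 5.85, 14.3 and 7.16 CPM (-2.33, SE 0.32, adjusted p = 2.03e-06). The next strongest by adjusted p lay inside Myo3b, Tspan5, Abcb1a (the drug efflux pump P-glycoprotein), Itpr1 (a calcium channel of the endoplasmic reticulum), Jmjd1c, Ankrd33b and the calcium-regulated factor gene Nfatc2, and outside Tomm20 and Ube2cbp, with log2 changes from -3.23 to -1.94. None of these 12 calls, chosen for the smallest adjusted p, was lost when a library was left out.

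Genes with many members did not respond as a block. Of the 9 members at Hdac4, 2 fell in Th17n. The call of one (-1.30, adjusted p = 0.031) was lost without any 1 Th17n library other than DFMO replicate 2 (0.06 to 0.235), with DESeq2 (0.0602) and with thinned libraries (0.0909), and that of the other (-1.52, adjusted p = 0.0243) without Th17n vehicle replicate 2 or 3 or Th17n DFMO replicate 1 or 2 (0.0854 to 0.0999). None of the 8 at Wwox, the 7 at Ebf1 or the 7 at Sox5 passed in Th17n. In iTreg, calls were made at Hdac4 (adjusted p = 0.0329), Wwox (0.0306 and 0.0457) and Ebf1 (0.0203). Each of these iTreg calls was lost with thinned libraries and without at least 1 iTreg library. Emb, which encodes a partner of monocarboxylate transporters, had 6 members, of which 3 fell in Th17n, at log2 changes of -1.02, -1.12 and -2.84. The first call was lost without Th17n vehicle replicate 2 (0.112) or Th17n DFMO replicate 1 or 3 (0.0668 and 0.101) and with thinned libraries (0.0647), and the second without Th17n vehicle replicate 2 or 3 (0.0642 and 0.0519) or Th17n DFMO replicate 2 (0.0616). The most accessible Emb member (chromosome 13, 117260208 to 117261245) stood at 90.2 ± 2.57 and 77.0 ± 14.6 CPM without passing (-0.18, adjusted p = 0.569). Mgll had 7 members, of which 3 fell, and the call of one inside the gene (-1.70, adjusted p = 0.00882) was lost without Th17n vehicle replicate 3 (0.0902) or Th17n DFMO replicate 1 (0.0924). Of the 519 runs, 167 held a member called in Th17n and 19 were called throughout, where 13.7% of all members fell and 2.1% rose. Runs of other peaks were not counted, so these numbers do not show whether calls lie together.

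Gains were fewer. Inside Ctsf, the gene of the lysosomal protease cathepsin F (chromosome 19, 4858905 to 4859435), 6.86, 11.1 and 9.69 CPM in Th17n vehicle became 33.1, 34.2 and 35.2 CPM with DFMO (1.82, SE 0.31, adjusted p = 8.95e-05). Inside Mrrf, which encodes a recycling factor of mitochondrial ribosomes (chromosome 2, 36169107 to 36169461), 4.90, 4.93 and 6.17 CPM became 28.9, 30.3 and 22.8 CPM (2.37, SE 0.40, adjusted p = 8.95e-05). Inside Rab38, a small GTPase gene (chromosome 7, 88459873 to 88460176), 2.94, 5.70 and 3.23 CPM became 22.1, 25.1 and 17.6 CPM (2.32, SE 0.38, adjusted p = 5.8e-05). In vehicle this last peak was no higher in Th17n than in iTreg (7.67, 3.65 and 3.84 CPM), so it met the rule through its DFMO libraries. The Mrrf peak likewise lay under 8 CPM in every Th17n vehicle library and reached that level through its DFMO libraries. Inside Srl (chromosome 16, 4503501 to 4504085) accessibility rose in both lineages, from 25.0 ± 2.78 to 61.6 ± 6.81 CPM in Th17n (1.30, SE 0.22, adjusted p = 0.000116) and from 5.84 ± 1.96 to 13.8 ± 3.01 CPM in iTreg (1.16, SE 0.29, adjusted p = 0.00734, lost with thinned libraries at 0.0888). A peak inside Fto also rose in both (1.59, adjusted p = 0.000517, and 1.97, adjusted p = 0.00231); its iTreg call was lost without iTreg DFMO replicate 3 (0.0552) and with thinned libraries (0.0691). Other gains lay at Tomm5, Prim2, Pde11a, Tnfrsf19, Amer2 and Antxr1, with log2 changes of 1.53 to 2.60, and DESeq2 did not call the one at Antxr1 (adjusted p = 0.103).

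In iTreg cells, where members were low by choice, 163 (4.83%) fell and 80 (2.37%) rose with DFMO. Over all peaks tested 4.72% fell and 3.84% rose, 8.56% in either direction, so the share that fell was near the background. The median over members was -0.16, and it depended on 1 library: without iTreg vehicle replicate 3 it was 0.03, with 50 lower and 56 higher. The lower count was also 107 and 58 without iTreg DFMO replicate 1 or 3 and 93 without iTreg vehicle replicate 2, and the higher count was 30 without iTreg DFMO replicate 3 and 43 without iTreg vehicle replicate 2. Of the members that fell in Th17n 8.87% also fell in iTreg, and of those that fell in iTreg 25.2% also fell in Th17n. The same overlap was not counted over all peaks tested. These shares therefore do not show whether members differ from other peaks in this.

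The difference of the DFMO effect between the lineages passed at 61 members (1.81%) with a more negative change in Th17n and at 15 (0.444%) with a more positive one. Over all peaks tested these shares were 0.478% and 0.835%, 1.31% in either direction. Without 1 library the 61 became 33 and 38 (Th17n vehicle replicate 3 or 2), 38 (Th17n DFMO replicate 1), 32 (iTreg vehicle replicate 2) or 95 (iTreg DFMO replicate 2). The 15 became 7 without Th17n vehicle replicate 1, 2 or 3 or Th17n DFMO replicate 1 or 2, 8 without iTreg vehicle replicate 3, 9 without iTreg DFMO replicate 3, 43 without iTreg vehicle replicate 1 and 54 without iTreg DFMO replicate 2.

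The clearest such member lay at the far end of Atm, the gene of a DNA damage kinase (chromosome 9, 53435559 to 53436419). It held 34.3, 42.0 and 54.0 CPM in Th17n vehicle and 13, 20.3 and 18.9 CPM with DFMO, but 3.58, 2.58 and 3.23 CPM in iTreg vehicle and 8.80, 15.2 and 8.21 CPM with DFMO. It fell in Th17n (-1.35, SE 0.27, adjusted p = 0.000815) and rose in iTreg (1.80, SE 0.37, adjusted p = 0.001, lost with thinned libraries at 0.104), without overlap in either, a difference of -3.15 (SE 0.45, adjusted p = 5.05e-05). Inside Cep70, a centrosomal protein gene (chromosome 9, 99303827 to 99304585), iTreg rose from 4.09, 1.29 and 1.01 to 6.46, 11.9 and 15.2 CPM (2.80, SE 0.39, adjusted p = 4.72e-06). Th17n held 77.4, 53.4 and 61.4 CPM in vehicle and 57.2, 48.0 and 63.2 CPM with DFMO, which overlapped (-0.13, adjusted p = 0.777). Inside Chd2, a chromatin remodeller gene (chromosome 7, 73503094 to 73503729), iTreg fell from 14.3, 13.3 and 19.2 to 2.93, 4.74 and 6.45 CPM (-1.62, SE 0.27, adjusted p = 9.91e-05), while Th17n held 81.5 ± 6.50 and 94.1 ± 9.38 CPM (0.22, adjusted p = 0.442). At the far end of Mgll, which encodes a lipase of monoacylglycerols (chromosome 6, 88827542 to 88828887), Th17n fell from 87.3 ± 13.5 to 40.3 ± 10.5 CPM (-1.05, adjusted p = 0.00137) and iTreg went from 6.26 ± 2.45 to 12.7 ± 6.92 CPM (1.05, adjusted p = 0.0322). That iTreg call was lost without iTreg vehicle replicate 2 (0.249), without iTreg DFMO replicate 1 or 3 (0.234 and 0.105) and with thinned libraries (0.0511), whereas the difference of -2.10 (adjusted p = 0.00213) held in all of these.

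**Figure D4:**
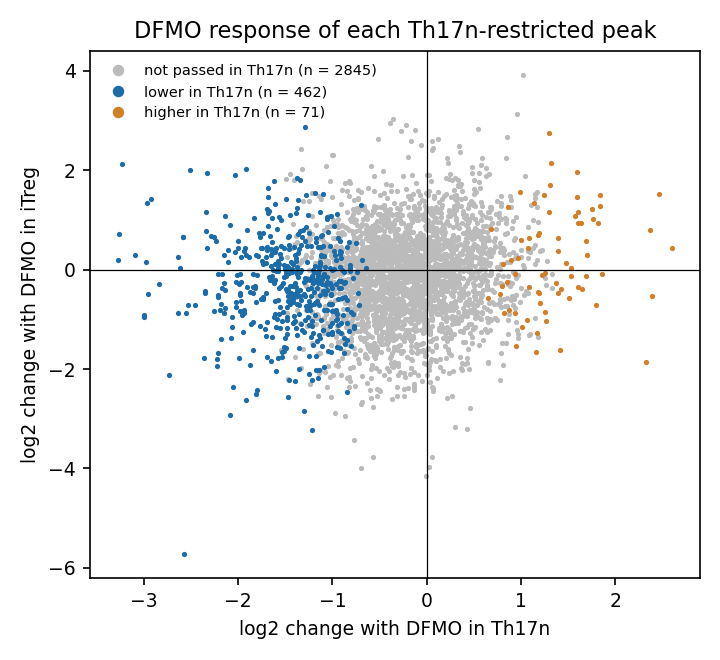
Log2 change with DFMO in Th17n (horizontal axis) and in iTreg (vertical axis) for each of the 3378 Th17n-restricted peaks; colours mark the 462 called lower and the 71 called higher in Th17n. The spread is wider on the iTreg axis, where the peaks held few counts, and the points called lower in Th17n lie on both sides of 0 on the iTreg axis.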

How the data were processed

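ATAC-seq measures open chromatin by the insertion of adapters with the transposase Tn5. The authors deposited 1 table of raw counts of reads in 48443 peaks for 12 libraries, and the submitters' processing notes name Trimmomatic, FastQC, Bowtie2, MACS2 and the genome build mm10. Versions, the Tn5 offset, duplicate removal and the merging of peaks across libraries were not given in the sources used here. Start positions are those of the table, which does not state whether they count from 0 or 1. No column of the table was unused (0 columns).

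Counts were tested with edgeR 4.0.16 (quasi-likelihood test, R 4.3.3) on the deposited counts of all 12 libraries in 1 model with 4 group means, TMM factors and filterByExpr with a minimum count of 10. The 43726 peaks that passed included all 3378 members, which met it partly through the high Th17n level that chose them. P-values were adjusted over all peaks tested by the Benjamini-Hochberg method, with a threshold of 0.05. Alternatives were DESeq2 1.42.0, other scalings, no filter, thinning to the smallest library, the animal as a block, each library left out and, added after the data were seen, factors from gene-end peaks. The scripts were tested on simulated data. Library totals limit precision. At members the counting error is largest in the iTreg libraries, where the rule chose peaks with low values.

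Peaks were placed by RefSeq protein-coding gene models (GRCm38.p6), nearest within 100 kb. Only the ends of a gene model were used, so a place inside a gene is not divided into exon, intron or UTR. No genome was used here, so peak sequences are not shown and motifs were searched in the promoter table alone. Animal labels, which give the same 3 animals in every group, pair the libraries; deviations from group means correlated at -0.055 to 0.075 over 18 same-animal pairs, and 5 of 12 libraries correlated best with their own animal.

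Named members were those of highest level or ratio, the 12 lowest and 12 highest by adjusted p with DFMO in Th17n, members at genes of the lists or at genes with many members, the strongest in iTreg and in the difference between lineages, and those beside the thresholds. The members, lists and rules were chosen with earlier results of these data known. Some members of the lists are not reported here by name.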

Additional observations from a re-analysis of the deposited data

Results flagged for a closer look

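For 20 of the named Th17n-restricted peaks the DFMO effect differed between Th17n and iTreg by a test of the difference itself (edgeR quasi-likelihood test with Benjamini-Hochberg adjustment over 43726 peaks). The values are log2 changes in Th17n minus those in iTreg. A more negative change in Th17n was found at Atm (-3.15), Cep70 (-2.93), Papss1 (-4.28), Mgll (-2.10), Itpr1 (-3.24), Plekhg3 (-2.34), Ube2cbp (-5.34), Myo3b (-3.48), Ndrg1 (-3.47), Frmd6 (-1.59), Id2 (-2.91), Emb (-2.08), Satb1 (-2.40) and the Il17a start (-2.78). A more positive one was found at Rab38 (4.17), Smg1 (2.45), Chd2 (1.84), Tnfrsf19 (2.91), Chm (1.84) and Cnst (2.03). Leaving out 1 library ended 12 of these 20 calls, and those at Atm, Cep70, Rab38, Smg1, Chd2, Papss1, Mgll and Ube2cbp held in each such fit. DESeq2 did not call Smg1 (adjusted p = 0.0541), and thinning the libraries ended the call at Papss1 (0.377). At Smg1, a kinase of nonsense-mediated decay, iTreg vehicle held 7.16, 18.3 and 32.1 CPM and iTreg with DFMO 3.52, 5.69 and 2.93 CPM, while Th17n stayed at 63.2 to 92.3 CPM. At the Il17a start the iTreg libraries held 0, 0.86 and 1.62 CPM in vehicle and 5.28, 2.85 and 1.47 CPM with DFMO, which overlapped (1.49, adjusted p = 0.119), and that call of a difference was lost in 7 of the fits without 1 library.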

How the results depend on the processing

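The number of members was 1898 at a ratio of 6 or more and 1584 at a level of 16 CPM or more. Their share at gene ends was 2.01% with a 500 bp window and 6.48% with 2000 bp. With only the 6 Th17n libraries in the model, 799 members were lower and 166 higher with DFMO in Th17n. Thinned to the smallest library, 280 were lower and 46 higher in Th17n, 33 lower and 19 higher in iTreg, and the difference between lineages was called at 20 with a more negative and 6 with a more positive change in Th17n. Without 1 library at a time, the lower count in Th17n ran from 220 to 575 and the higher from 24 to 91, the lower count in iTreg from 50 to 227 and the higher from 30 to 82, and the calls of a difference from 32 to 95 and from 7 to 54. The median in iTreg ran from -0.246 to 0.034 and turned its sign without iTreg vehicle replicate 3. Fewer counts or libraries enter these fits, and some of the counts of calls rose in them. The cause of these shifts, also in the fit of the 6 Th17n libraries, was not tested. DESeq2 (399 lower, 49 higher in Th17n), other size factors (496 to 568 lower), no filter (506 lower) and the animal as a block (439 lower, 71 higher) kept each Th17n count within 1.5 times. With the animal as a block, 156 were lower and 79 higher in iTreg, and the difference was called at 65 and 20. Among 185 named members the block ended the call of Il1r1 in Th17n (0.0799) and those of Nfil3 (0.0524) and Fosl2 (0.0558) in iTreg, and added Wwox in Th17n and Lekr1 for the difference; it changed no other call. Of the 62 named calls in Th17n 20 were lost without at least 1 library, and of the 30 in iTreg 19 were. The named calls include those with the smallest adjusted p, so these counts do not stand for the calls of all members. The iTreg libraries held a median of 4 to 14 counts at a member, so changes there are the least certain.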
